A study of Mus musculus with 42 samples.

Results

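The developmental regulators of brown and white fat described here are 8 genes, Prdm16, Ebf2, Ebf3, Zic1, Lhx8, Tbx15, Meox2 and Bmp7, of the 18193 genes that the arrays name. They were chosen by name, with earlier results of these data known. All 20 probe sets annotated to 1 of them alone were used, of 45037 probe sets tested. A probe set is a group of short oligonucleotides on the array that reads 1 transcript. Male mice of the ddY strain, 5 weeks old at arrival and kept for 1 week before the experiment, were given VAAM (a 1.8% mixture of amino acids simulating the larval saliva of Vespa hornets) or water, at 37.5 μL per g of body weight. Each mouse received 5 daily oral administrations. Brown adipose tissue (BAT), white adipose tissue (WAT) and liver were taken 4 h after the last of these. The groups are 7 VAAM and 7 water arrays in each tissue, 42 arrays in all, and no source used here gives the depot of the WAT. The labels name no cage, litter or batch, so p-values measure only the spread between these arrays, each called a mouse here.

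Fat cells arise from mesenchymal progenitors, and brown and white fat cells differ in their developmental history. Prdm16 is a transcriptional coregulator that steers progenitors to the brown fate, and the early B cell factors Ebf2 and Ebf3 bind DNA beside Pparg at fat genes, with Ebf2 marking brown precursors. Zic1, a zinc finger factor, and Lhx8, a LIM homeobox factor, are known as markers of classical interscapular brown fat. Tbx15 is a T-box factor of fat depots and of skeletal muscle, and Meox2 is a homeobox factor of the somites, of limb muscle and of blood vessels. Bmp7 is a secreted ligand that drives brown fat differentiation and acts through receptor kinases and Smad proteins.

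The stretches upstream of 3 of these genes are shown because Zic1 and Lhx8 were both higher in BAT and varied together from mouse to mouse, while Meox2 was high in both fat tissues. Each is the 250 bases before the annotated start, from RefSeq on GRCm38.p6, written 5′ to 3′ along the gene. They lie at chr9:91365769-91366018 (minus strand) for Zic1, chr3:154330561-154330810 (minus strand) for Lhx8 and chr12:37108290-37108539 (plus strand) for Meox2. The Zic1 stretch also lies within the annotated span of its neighbour Zic4. Capitals mark, on either strand, the CCAAT box letters CCAAT, the E-box letters CACGTG, the TATA box letters TATAAA or the EBF core letters CCCNNGGG.
Zic1: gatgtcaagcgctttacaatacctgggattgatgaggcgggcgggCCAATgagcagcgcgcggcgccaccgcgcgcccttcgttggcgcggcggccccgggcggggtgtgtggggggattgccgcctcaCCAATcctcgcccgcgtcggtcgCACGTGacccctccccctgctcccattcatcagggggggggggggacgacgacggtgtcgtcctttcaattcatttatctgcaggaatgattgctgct
Lhx8: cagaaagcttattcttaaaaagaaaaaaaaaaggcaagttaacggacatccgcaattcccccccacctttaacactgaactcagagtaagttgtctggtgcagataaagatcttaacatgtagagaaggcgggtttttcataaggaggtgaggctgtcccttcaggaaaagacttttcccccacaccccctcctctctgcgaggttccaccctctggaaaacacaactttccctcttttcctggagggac
Meox2: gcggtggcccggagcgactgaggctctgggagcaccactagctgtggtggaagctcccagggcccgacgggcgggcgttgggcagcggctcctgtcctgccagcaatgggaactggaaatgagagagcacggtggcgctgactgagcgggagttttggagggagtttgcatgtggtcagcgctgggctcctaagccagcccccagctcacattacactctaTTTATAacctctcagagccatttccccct
The Zic1 stretch held 2 CCAAT matches and 1 CACGTG match at a GC content of 66%. The Lhx8 stretch held none of the 4 motifs at a GC content of 46%. The Meox2 stretch held 1 TATAAA match, on the opposite strand, at a GC content of 62%. Of 32851 such stretches in the annotation, 33.8% held the CCAAT box, 6.02% the E-box, 12.4% the TATA box and 11.8% the EBF core. A match is a description of the letters and not a binding site. Sequences were matched for 5 of the 8 genes. Ebf2, Bmp7 and Tbx15 are named only.

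Levels are the deposited values on a log scale, taken as log2. The arrays of a tissue lay close together in the deposited summary. The SD among the 7 arrays of a group was at most 0.00515 for any of the 20 probe sets in BAT, 0.00218 in WAT and 3.38e-05 in liver. A level is therefore given once for a group, since all 7 arrays round to nearly the same number. The array medians lay between 6.7739 and 6.7754 in BAT, 6.9076 and 6.9133 in WAT, and 6.7294 and 6.7297 in liver, without overlap, as a separate summary of each tissue would give, which the sources used here do not state. In water mice 99.8% of all probe sets passed limma (adjusted p under 0.05) between BAT and WAT, 99.9% between BAT and liver and 99.8% between WAT and liver. All 20 of these probe sets passed in each comparison, which matches that background and is read as nothing more. Differences between tissues are therefore described by size, beside the differences of all probe sets, and are not fold changes. VAAM mice are no independent repeat, as they share the summary. Over the 20 probe sets their tissue differences departed from those of water mice by at most 0.00125.

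The labelled tissues carried their defining markers. Ucp1, the uncoupling protein of brown fat, stood at 14.22 in BAT, 6.36 in WAT and 6.39 in liver. Lep stood at 7.14, 10.93 and 6.39 in the same order. Adipoq stood at 14.04, 14.39 and 5.89. Alb stood at 6.57, 7.04 and 15.0. Among listed markers of other cells, 11 of 14 skeletal muscle genes were higher by over 0.5 in BAT than in WAT and 0 lower. Lower by as much in BAT were 7 of 10 epididymis genes and 10 of 10 simple epithelium and mesothelium genes. So were 6 of 6 macrophage, 6 of 8 stromal and preadipocyte, 2 of 10 endothelial, 2 of 9 hepatocyte and 0 of 3 nerve genes. In each of these lists 0 were higher. Of all 18193 genes 1233 were higher and 3865 lower.

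**Figure D1:**
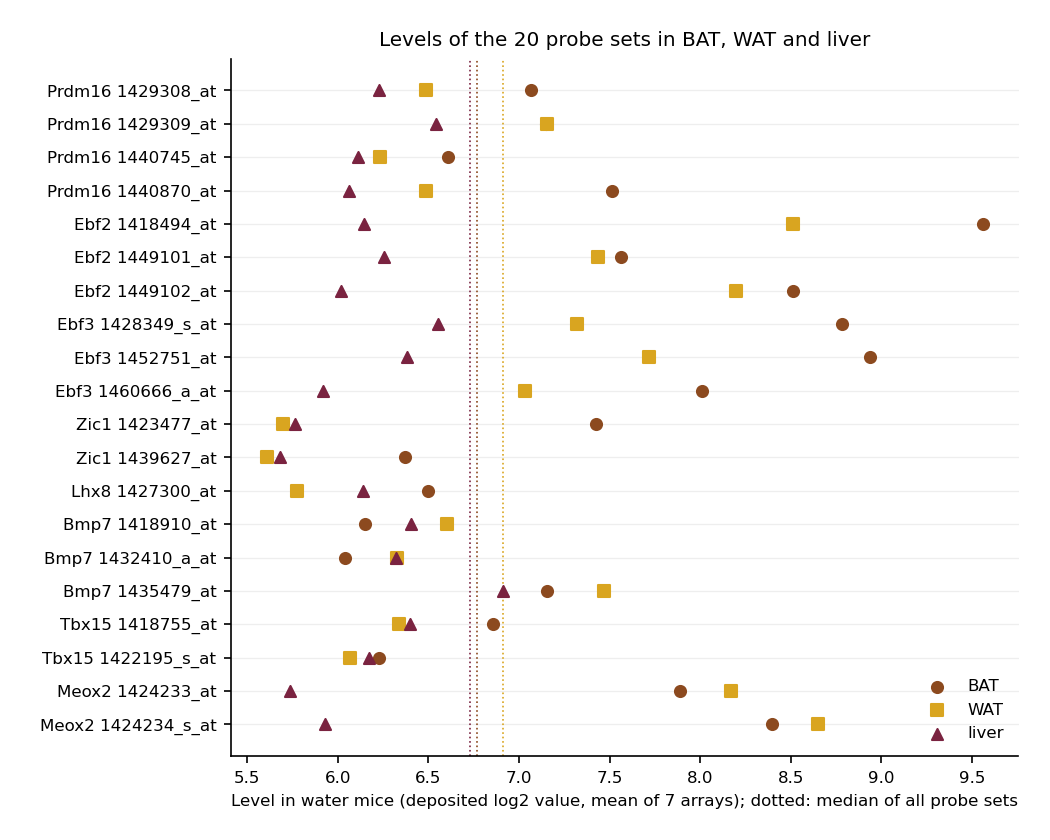
Mean deposited log2 level of each of the 20 probe sets in water mice (x axis), for BAT (circles), WAT (squares) and liver (triangles), 7 arrays each, with dotted lines at the median of all probe sets of each tissue. Levels of different probe sets are not comparable. Liver lies below its median in 19 of 20, and BAT lies right of WAT for Ebf2, Ebf3, Zic1, Lhx8 and Tbx15.

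Relative to the median of all probe sets of the tissue, 14 of the 20 lay above it in BAT, 10 in WAT and 1 in liver. In water mice 10 of 20 were higher by over 0.5 in BAT than in WAT, against 5.21% of all probe sets, and 0 were lower by over 0.5, against 17.8%. In BAT against liver 13 were higher, against 13.9% of all probe sets, and 0 lower, against 9.8%. In WAT against liver 10 were higher, against 23.7%, and 0 lower, against 7.75%. The limit of 0.5 was chosen after the values were seen, and the 8 genes with earlier results of these data known. Fewer cells of a type and less RNA per cell cannot be told apart in RNA of whole tissue. The median of all probe sets itself differed by -0.093 (BAT minus WAT), and relative to it Zic1 1423477_at stood at 1.82 and Meox2 1424234_s_at at -0.16.

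The markers of classical brown fat, Zic1 and Lhx8, were both at higher levels in BAT. Zic1 1423477_at stood at 7.43 in BAT, against 5.70 in WAT and 5.76 in liver. The BAT minus WAT difference of 1.73 exceeded that of 99.5% of all probe sets. The second Zic1 probe set, 1439627_at, stood at 6.37 in BAT, against 5.61 in WAT and 5.68 in liver, and its difference of 0.76 exceeded 97.3%. WAT and liver were thus close to each other for both, with WAT minus liver at -0.07 and -0.08. Lhx8 1427300_at stood at 6.50 in BAT, against 5.78 in WAT and 6.14 in liver. The BAT minus WAT difference was 0.72 and the WAT minus liver difference -0.36. In BAT its level lay below the tissue's median of 6.77. Zic4, the neighbour of Zic1, stood at 6.46 in BAT and 6.40 in WAT.

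Probe sets of the same gene varied together among mice in some tissues and not in others. The 2 Zic1 probe sets correlated across the 14 arrays at r = 0.98 in BAT, but at 0.02 in WAT and -0.05 in liver. The 3 Ebf2 probe sets correlated at 0.97 to 0.98 in WAT, at 0.43 to 0.84 in BAT and at -0.09 to 0.14 in liver. The Meox2 pair correlated at 0.92 in BAT, 0.99 in WAT and 0.45 in liver. Over the 18 pairs of probe sets of 1 gene the median r was 0.53 in BAT, 0.62 in WAT and 0.1 in liver. These are descriptions over n = 14 arrays that share a summary. Bmp7 gave no pair above 0.23 in BAT, and the Tbx15 pair correlated at 0.73 in BAT, 0.0 in WAT and -0.14 in liver.

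The early B cell factors were high in both fat tissues and higher in BAT. Ebf2 1418494_at stood at 9.56 in BAT, 8.51 in WAT and 6.14 in liver, a BAT minus WAT difference of 1.05 and a BAT minus liver difference of 3.42. The other Ebf2 probe sets differed by less between the fats, with 1449102_at at 8.51 in BAT and 8.20 in WAT, and 1449101_at at 7.57 and 7.44. All 3 Ebf3 probe sets were higher in BAT. Ebf3 1428349_s_at stood at 8.78 in BAT and 7.32 in WAT, 1452751_at at 8.94 and 7.72, and 1460666_a_at at 8.01 and 7.03. Their differences of 1.46, 1.22 and 0.98 exceeded those of 99.2%, 98.8% and 98.1% of all probe sets. In liver the 3 Ebf3 probe sets stood between 5.92 and 6.55.

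Prdm16 depended on the probe set. Prdm16 1440870_at stood at 7.51 in BAT, 6.49 in WAT and 6.06 in liver, a BAT minus WAT difference of 1.03. It was followed by 1429308_at with a difference of 0.58 (7.07 in BAT and 6.49 in WAT) and 1440745_at with 0.38 (6.61 and 6.23). The fourth, 1429309_at, which has the highest mean of the 4 over all arrays, stood at 7.15 in both fats and 6.54 in liver. Its BAT minus WAT difference of -0.004 became 0.13 after median centring and 0.207 after quantile normalization. Relative to liver all 4 were higher in BAT, by 0.50 to 1.45.

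Tbx15 was somewhat higher in BAT. The probe set 1418755_at stood at 6.86 in BAT, 6.34 in WAT and 6.40 in liver, a BAT minus WAT difference of 0.52, and 1422195_s_at stood at 6.23, 6.07 and 6.17. Both Tbx15 probe sets were slightly lower in WAT than in liver, with WAT minus liver at -0.06 and -0.10.

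Bmp7 was lower in BAT than in WAT, and so was Meox2 except after quantile normalization. Meox2 1424234_s_at stood at 8.39 in BAT, 8.65 in WAT and 5.93 in liver, and 1424233_at at 7.89, 8.17 and 5.73. The BAT minus WAT differences of -0.25 and -0.28 turned to 0.0864 and 0.0534 after quantile normalization, so the order of the fats is not settled for Meox2. Both probe sets were higher in either fat than in liver, by 2.15 and 2.47 in BAT and by 2.43 and 2.72 in WAT. The 3 Bmp7 probe sets differed by -0.45, -0.29 and -0.31 between BAT and WAT. Bmp7 1435479_at stood at 7.16 in BAT, 7.47 in WAT and 6.91 in liver, while 1418910_at stood at 6.15, 6.60 and 6.41, and 1432410_a_at at 6.04, 6.33 and 6.32. Only 1435479_at lay above the median of all probe sets in BAT and WAT.

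**Figure D2:**
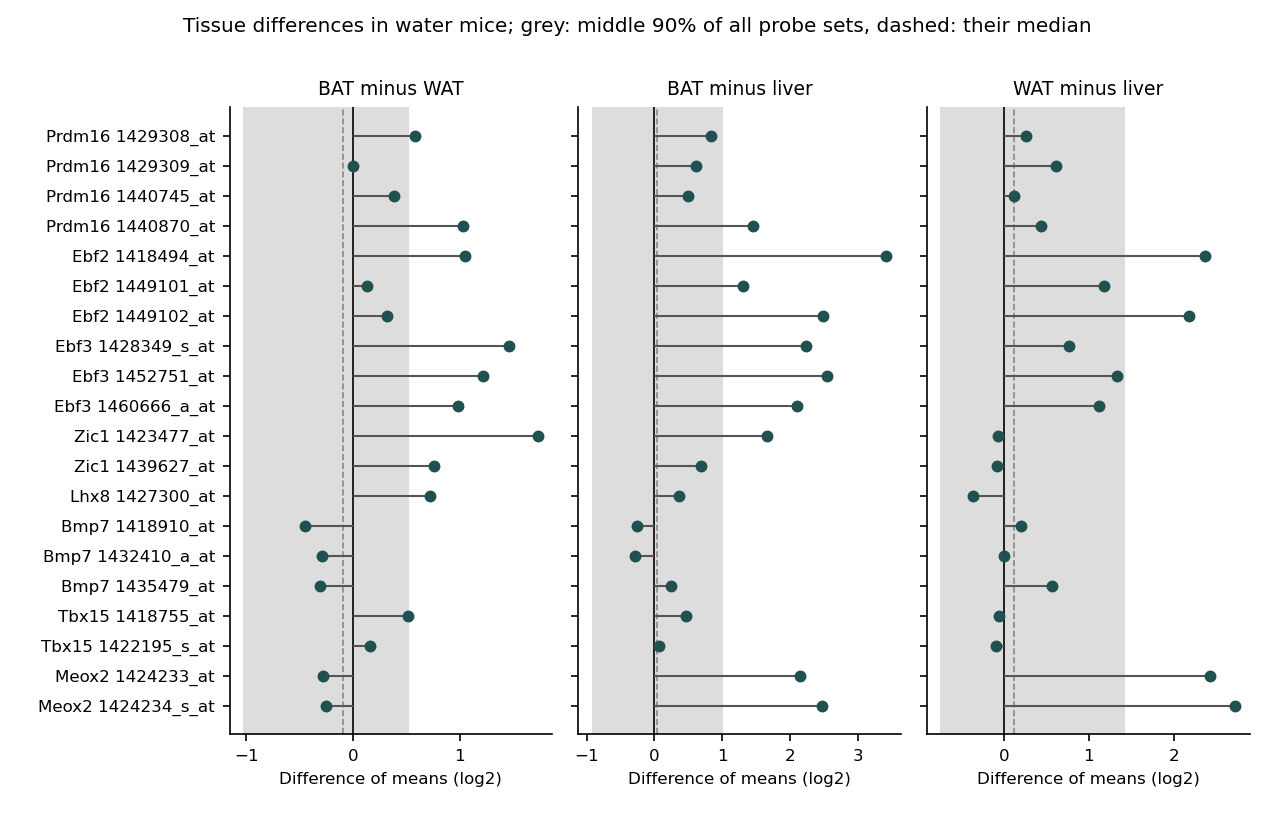
Differences of mean log2 values in water mice for the 20 probe sets (x axes; 7 arrays a tissue), for BAT minus WAT, BAT minus liver and WAT minus liver. The grey band holds the middle 90% of all 45037 probe sets and the dashed line is their median. Zic1 1423477_at (1.73) and Ebf3 1428349_s_at (1.46) lie right of the band in BAT minus WAT, and the Bmp7 and Meox2 probe sets lie left of 0, which turned for Meox2 after quantile normalization.

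Genes with related roles gave a background for these differences, from lists chosen with earlier results of these data known. BAT exceeded WAT by over 0.5 for 1233 of 18193 genes and lay below it by as much for 3865, with a median difference of -0.11. Of 20 other regulators of brown fat, 8 were higher and 5 lower, with a median of 0.09. Ppara, a fatty acid receptor that activates oxidation genes, stood 3.19 higher in BAT, and Ppargc1b, a coactivator of mitochondrial genes, 2.98 higher. Zfp423, a zinc finger factor of preadipocytes that holds back the brown programme, was lower (-0.83), as was the corepressor Ctbp2 (-0.80). Of 12 thermogenic genes 9 were higher and 1 lower (median 3.15), and of 14 white fat genes 0 were higher and 12 lower (median -3.14). Of 19 relatives of the 8 genes, such as Ebf1, Ebf4, Zic2, Lhx9 and Meox1, 0 were higher and 0 lower by over 0.5. Ebf1 stood at 9.64 in BAT and 9.74 in WAT. Ebf1 and Mecom stand in both the regulator and the relative lists. Of 8 genes of the dermomyotome, from which brown fat descends, and of the muscle lineage, 0 passed the limit in either direction. Myf5 stood at 5.52 in BAT and 5.55 in WAT, below the medians of all probe sets (6.77 and 6.91).

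Of the listed BMP pathway genes around Bmp7 more were lower than higher in BAT, as was so for all genes. Of 10 other BMP ligands 1 was higher and 3 lower in BAT. Gdf5 was higher (1.10), while Gdf10 (-2.15) and Bmp4, a ligand of white fat commitment (-1.78), were lower. Of 11 receptors and Smads 0 were higher and 5 lower, with Bmpr2 at 10.24 in BAT and 11.64 in WAT and Smad1 at 8.40 in BAT and 9.98 in WAT. Of 12 inhibitors 0 were higher and 4 lower, led by Chrdl1 at 6.64 in BAT and 9.77 in WAT. Of 8 target genes 0 were higher and 2 lower, which were Id4 (-1.08) and Id3 (-0.75).

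Across mice, Zic1 and Lhx8 deviated together in BAT. Deviations are given from the mean of the 14 BAT arrays, in SD over these arrays. Zic1 1423477_at stood in VAAM mice at a lowest value of -1.88 and a highest of 1.27, and in water mice at -0.89 and 1.18. Lhx8 ran in VAAM mice between -1.72 and 1.15 and in water mice between -0.92 and 0.83. VAAM mice 1 and 7 were lowest for both genes (Zic1 -1.46 and -1.88, Lhx8 -1.72 and -1.40), and VAAM and water mice overlapped. Pearson's r was 0.89 (permutation p 4e-05, adjusted 0.00272) and Spearman's rho 0.75 (permutation p 0.00323, adjusted 0.0637), adjusted over 136 relations computed in BAT and WAT. The r was 0.81 without the 2 mice farthest from the Lhx8 median, 0.93 within the 7 VAAM mice and 0.89 within the 7 water mice. Against the skeletal muscle score r was -0.40 for Zic1 and -0.33 for Lhx8 (permutation p 0.155 and 0.25, adjusted 0.613 and 0.681, rho -0.33 and -0.42, permutation p 0.254 and 0.132, adjusted 0.653 and 0.471), and -0.08 for both without the 2 farthest mice. Within VAAM mice it was -0.71 for Zic1 and -0.76 for Lhx8, and within water mice 0.03 and 0.35. VAAM mice 7 and 1, lowest for both genes, had the highest muscle scores (1.38 and 1.12) and array medians (1.26 and 0.96) of the VAAM mice. The part of muscle RNA in the Zic1 and Lhx8 values was not tested. A score is the mean deviation of the listed marker genes. In each relation with a score or the array median, the 2 mice left out are those farthest from its median.

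Tbx15 1418755_at followed that muscle score. In BAT it was highest in VAAM mouse 7 (1.89) and water mouse 1 (1.55), in which the score of the 14 muscle markers was 1.38 and 1.68. Over the 14 BAT arrays r was 0.87 (permutation p 0.00025, adjusted 0.0085) and rho 0.71 (permutation p 0.00642, adjusted 0.0814), with r = 0.76 without the 2 farthest mice, 0.81 within VAAM mice and 0.94 within water mice. The median of the array moved with it as well (r = 0.92, permutation p 3e-05, adjusted 0.00272, rho 0.87, permutation p 7e-05, adjusted 0.00952, and r = 0.88 without 2 mice). The part of muscle RNA in the Tbx15 difference between BAT and WAT was not tested.

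Meox2 followed endothelial markers in both fats. For 1424234_s_at r with the score of 10 endothelial genes was 0.76 in BAT (permutation p 0.00122, adjusted 0.0166, rho 0.75, permutation p 0.0034, adjusted 0.0637) and 0.90 in WAT (permutation p 0.00012, adjusted 0.00544, rho 0.76, permutation p 0.0022, adjusted 0.0637). Without the 2 farthest mice r was 0.82 in BAT and 0.70 in WAT. Within VAAM and water mice it was 0.78 and 0.78 in BAT and 0.88 and 0.90 in WAT. In WAT the relation was not separate from others. There Meox2 1424234_s_at also ran against the epididymis score (r = -0.81, permutation p 0.00188, adjusted 0.0232, rho -0.79, permutation p 0.00117, adjusted 0.0637) and the array median (r = -0.83, permutation p 0.00055, adjusted 0.0107, rho -0.67, permutation p 0.00968, adjusted 0.0878), with r at -0.47 and -0.59 without 2 mice. The endothelial score was also related in WAT to Ebf3 1452751_at (r = 0.89, permutation p 0.0009, adjusted 0.0136, rho 0.68, permutation p 0.00917, adjusted 0.0878) and Ebf2 1418494_at (r = 0.87, permutation p 0.00518, adjusted 0.0542, rho 0.56, permutation p 0.0407, adjusted 0.241), with r at 0.55 and 0.39 without 2 mice.

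**Figure D3:**
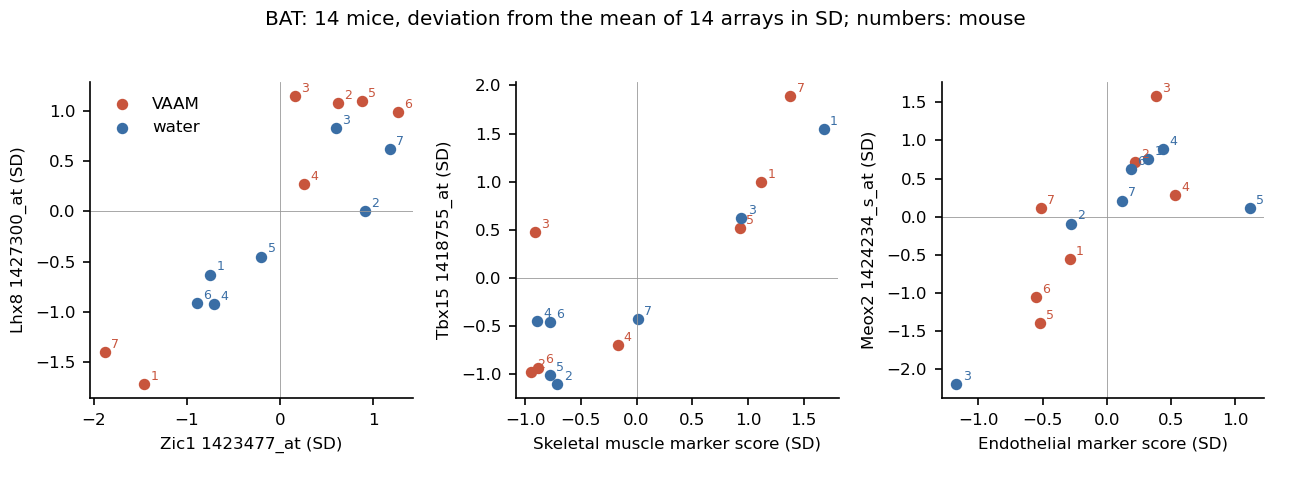
Deviation of each of the 14 BAT arrays from their mean, in SD over the 14 arrays, with VAAM mice in red and water mice in blue and the mouse number beside each point. Lhx8 rises with Zic1 (r = 0.89), Tbx15 with the skeletal muscle marker score (r = 0.87) and Meox2 with the endothelial marker score (r = 0.76).

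Genes most like a member were sought by Pearson correlation over the 42 arrays, but tissue differences set this measure. Between 451 (Lhx8) and 1645 (Bmp7) genes had r above 0.99 with a member. Over the 14 BAT arrays alone, chosen after the values were seen, the genes most like Zic1 were Alg6 (r = 0.8892), Lhx8 (0.8875) and Pdpk1 (0.8748). Those most like Tbx15 were Slc25a12 (0.9485), the muscle calcium channel gene Cacna1s (0.9437) and Hrc (0.93). Those most like Meox2 were Atad5 (0.8324), the endothelial gene Pecam1 (0.8256) and Tmem88 (0.8075). These are descriptions over n = 14 arrays of 1 tissue.

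The question of the treatment was whether VAAM shifted these genes in any tissue. By limma over all 45037 probe sets 0% passed an adjusted p of 0.05 in BAT, 0% in WAT and 0% in liver, and none of the 20 passed in any tissue. At an unadjusted limma p under 0.05, 2 of the 20 were found in BAT, against 5.1% of all probe sets, 0 in WAT, against 3.76%, and 2 in liver, against 9.09%. Effects are the VAAM mean minus the water mean in units of the within-group SD, ± SE, with a two-sided exact permutation p over 3432 splits, whose smallest possible value is 0.000583. Over the 60 effects SE lay between 0.53 and 0.64, and the VAAM and water mice overlapped in all 60. Effects over 1 SD in either direction numbered 2 of 20 in BAT, against 8.89% of all probe sets, 1 in WAT, against 6.87%, and 4 in liver, against 14.1%. An unadjusted exact p under 0.05 was found for 2 of 20 in BAT, against 5.6% of all probe sets, 0 of 20 in WAT, against 4.09%, and 3 of 20 in liver, against 8.93%.

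In BAT the 2 were probe sets of Prdm16 and Ebf3. Prdm16 1429309_at ran in VAAM mice between -3.98 and 0.10 with a median of -1.86, against -0.98 to 0.67 with a median of -0.12 in water mice, all from the water mean in within-group SD. The difference was -1.86 ± 0.64 (exact p 0.00495, n = 7 and 7), and 1 of 7 VAAM mice lay above the water median. The limma p adjusted over all probe sets was 0.926, and the within-group SD was 2.13e-06 on the log2 scale. The other 3 Prdm16 probe sets gave -0.19, -0.25 and 0.15 in BAT. Ebf3 1460666_a_at ran in VAAM mice between -3.20 and 0.12 with a median of -1.69, against -1.01 to 1.36 with a median of 0.01 in water mice. The difference was -1.37 ± 0.59 (exact p 0.0256), with the limma p adjusted to 0.936. Its exact p reached 0.053 when single mice were left out, over 0.05 without VAAM mouse 3, 4 or 5 or water mouse 5. The other Ebf3 probe sets gave -0.68 ± 0.55 and -0.08 ± 0.53. After quantile normalization the differences in BAT were -0.13 SD for Prdm16 1429309_at and -0.50 SD for Ebf3 1460666_a_at, and 0 of the 20 had an unadjusted limma p under 0.05.

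In liver, where the genes were near the low end of the scale, 3 probe sets had an exact p under 0.05. Ebf2 1449101_at ran in VAAM mice between -0.44 and 3.41 with a median of 2.22, against -1.11 to 0.84 with a median of 0.08 in water mice. Its difference was 1.87 ± 0.64 (exact p 0.00699), and quantile normalization turned it to -0.71. The other Ebf2 probe sets gave -0.30 and 0.00. Ebf3 1460666_a_at gave -1.22 ± 0.58 (exact p 0.0204) and Meox2 1424233_at 1.27 ± 0.59 (exact p 0.0385), and the Meox2 value became 0.00 after quantile normalization. The exact p of Meox2 reached 0.0752 when single mice were left out, and was 0.05 or more without VAAM mouse 1, 5, 6 or 7 or water mouse 2, 4, 6 or 7. The within-group SD behind these 3 values was between 9.41e-07 and 1.39e-05 on the log2 scale.

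**Figure D4:**
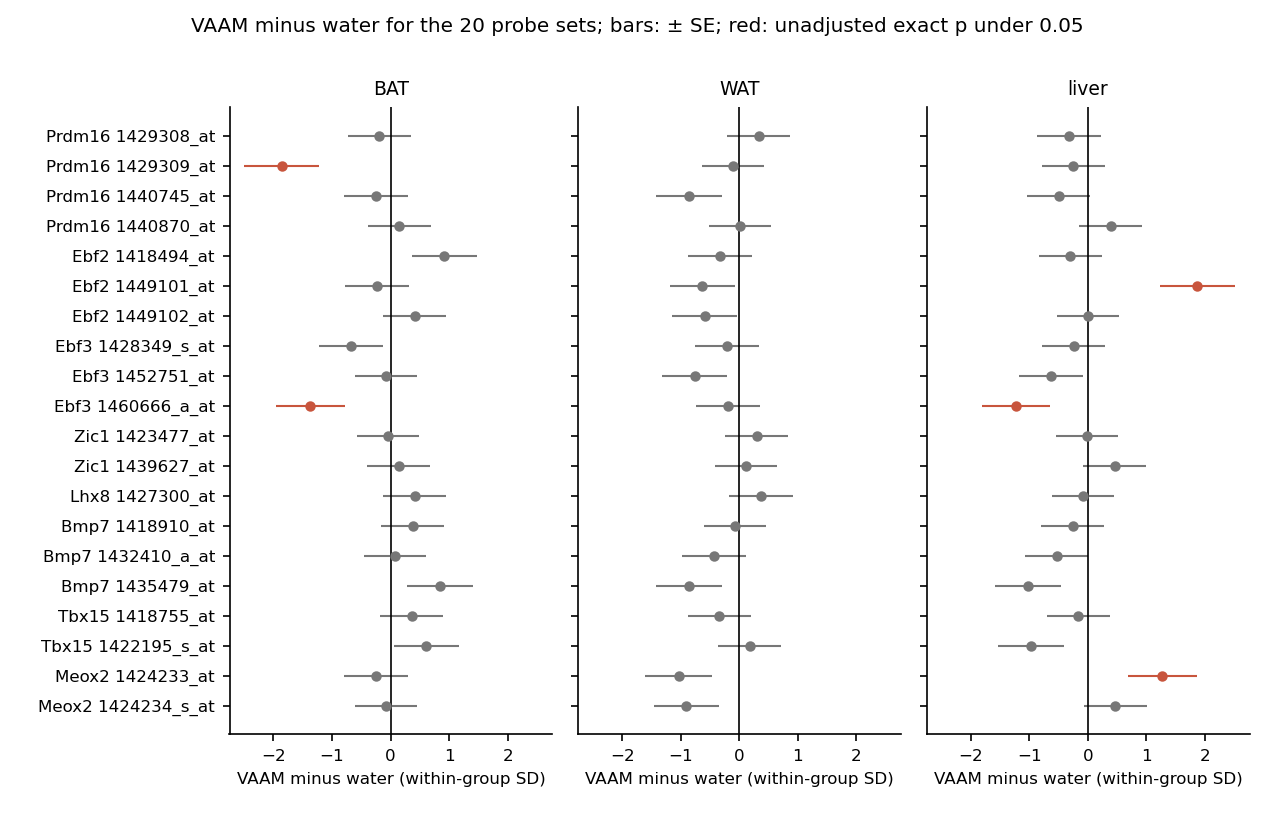
VAAM minus water in within-group SD (x axes) for the 20 probe sets in BAT, WAT and liver, 7 VAAM and 7 water arrays each. Points are effects, bars ± SE, and red marks an unadjusted exact p under 0.05. Red points are Prdm16 1429309_at (-1.86) and Ebf3 1460666_a_at (-1.37) in BAT and 3 probe sets in liver, with none in WAT.

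In WAT 14 of 20 effects were below 0 and 6 above, and 1 mouse decided several of them. VAAM mouse 1 stood at -3.19 for Ebf2 1418494_at, -3.01 for Ebf3 1452751_at and -2.61 for Meox2 1424234_s_at, in SD over the 14 WAT arrays, below all other mice of both groups for each. The same array had the highest epididymis score (2.41), the lowest endothelial score (-2.42) and the highest array median (2.41). Its adipocyte score (-2.64) and macrophage score (-2.27) were also the lowest of the 14. Water mouse 1 had an epididymis score of 1.26. Both of these mice were high for Prdm16 1440870_at (2.15 in VAAM mouse 1 and 2.26 in water mouse 1), where the other 12 lay between -0.86 and 0.30. Over the 14 WAT arrays the epididymis score ran against Ebf2 1418494_at (r = -0.88, permutation p 0.00055, adjusted 0.0107, rho -0.57, permutation p 0.0355, adjusted 0.219), and r was -0.47 without 2 mice. The relation thus rests in large part on those mice. For Ebf3 1452751_at r was -0.84 (permutation p 0.00213, adjusted 0.0241, rho -0.66, permutation p 0.0129, adjusted 0.11) and -0.55 without 2 mice. The part of epididymis RNA in the levels of these genes in WAT was not tested.

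Without VAAM mouse 1 the Ebf2 effects in WAT were 0.38, -0.31 and -0.24, where all 14 mice gave -0.33, -0.63 and -0.59. The Ebf3 effects were 0.30, -0.57 and 0.32 without it, where all 14 gave -0.21, -0.76 and -0.19. The Meox2 effects stayed below 0, with 1424233_at at -1.03 ± 0.57 (exact p 0.0682) over all mice and -0.88 ± 0.58 (exact p 0.14) without this mouse, and 1424234_s_at at -0.90 ± 0.56 (exact p 0.111) and -0.72 ± 0.57 (exact p 0.218). In VAAM mice Meox2 1424233_at ran from -3.27 to 0.01 with a median of -0.77, against -1.15 to 0.84 with a median of 0.42 in water mice, so that 0 of 7 VAAM mice lay above the water median. The endothelial markers moved the same way in WAT. VAAM minus water was below 0 for 10 of 10 of them, from -1.13 to -0.36 SD with a median of -0.73, and Cdh5 was the lowest (exact p 0.0262). The median of all probe sets was -0.01 SD. The 10 genes were read on the same 14 arrays and do not count as 10 repeats. Of them 1 had an exact p under 0.05, against 4.09% of all probe sets. Without VAAM mouse 1 all 10 were still below 0, with a median of -0.48. Their part in the Meox2 values was not tested. Prdm16 1440745_at had a larger effect without VAAM mouse 1 (-1.46 ± 0.63, exact p 0.0204) than over all mice (-0.86 ± 0.56, exact p 0.143). It was 1 of 20 under 0.05 in that setting, and remained the only one when water mouse 1 was left out too (-1.47 ± 0.65, exact p 0.0368).

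**Figure D5:**
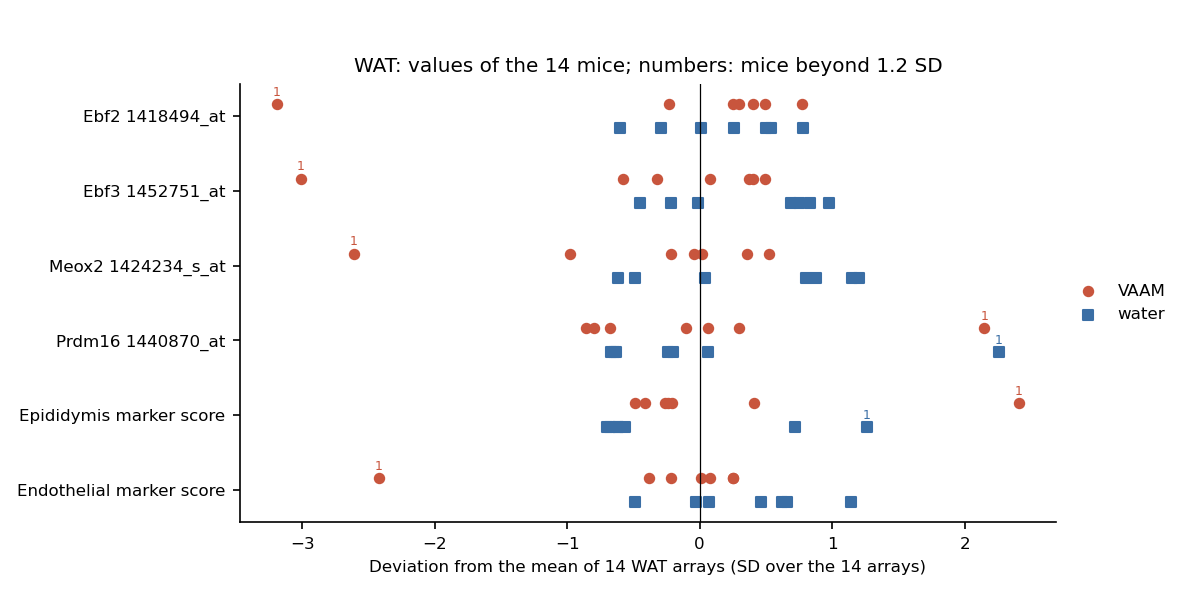
Deviation of each WAT array from the mean of the 14 arrays, in SD over these arrays (x axis), for 4 probe sets and 2 marker scores, with VAAM mice as red circles above water mice as blue squares. Numbers mark mice beyond 1.2 SD. VAAM mouse 1 lies lowest for Ebf2 (-3.19), Ebf3 (-3.01) and Meox2 (-2.61), and both mice numbered 1 lie highest for Prdm16 1440870_at.

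Rank products, the test that the methods of the study name, rank differences by size in each of 49 pairings of 1 VAAM array with 1 water array, without scaling by spread. At a false discovery rate under 0.05 they called 1 of the 20 in BAT, against 4.39% of all probe sets, 3 of 20 in WAT, against 3.45%, and 0 of 20 in liver, against 4.13%. In BAT this was Lhx8 1427300_at, called higher (rate 0.0138), whose effect was 0.41 ± 0.54 SD (exact p 0.45). In WAT these were Meox2 1424233_at (rate 0.0224, exact p 0.0682), Meox2 1424234_s_at (0.0119, exact p 0.111) and Ebf2 1449102_at (0.0493, exact p 0.333), all called lower. The 2 Meox2 probe sets correlated at 0.99 in WAT, so their calls are not independent. The within-group SD of the called probe sets lay between 0.000828 and 0.00188. The median SD of all probe sets was 1.06e-05 in BAT and 1.41e-05 in WAT, taken over the 14 arrays of a tissue and not within groups. A wide spread eases extreme ranks in this test, and its part in these calls was not tested. All 10 endothelial markers, which share the same arrays and are not independent, were also below 0 in WAT (median -0.73 SD). Their part in these calls was not tested. When each mouse was left out in turn, Meox2 1424234_s_at was called lower in 14 of 14 runs, 1424233_at in 10 and Ebf2 1449102_at in 8, while Lhx8 was called higher in 10 of 14. Zic1 1423477_at, not called with all mice, was called higher in 4 of the 14 BAT runs and lower in 3.

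A difference of the VAAM effect between tissues was tested on values scaled to unit SD in each tissue. The test took these SDs as known, although each was estimated from 14 arrays. Its p-values are therefore too small and its calls too many. None of the 20 passed, while 9 of all probe sets (0.02%) did for BAT minus WAT, 69 (0.153%) for BAT minus liver and 112 (0.249%) for WAT minus liver. The arrays of the 3 tissues carry the same numbers, but the labels do not say that a number is 1 animal. BAT and WAT arrays of 1 number deviated together in 6 of 7 pairs in VAAM mice and 5 of 7 in water mice (r over 0.1, at most 0.28). For BAT and liver these were 3 and 4 of 7, and for WAT and liver 4 and 1 of 7. With that number as a block, chosen after seeing the data, 0 of the 20 passed again, with 14, 107 and 149 of all probe sets called in the same order. Without the block, an unadjusted limma p under 0.05 was found for 2, 5 and 2 of the 20, against 5.18%, 8.37% and 10.1% of all probe sets. The term for Ebf2 1449101_at between WAT and liver was -2.50 SD (limma p 0.000945, adjusted 0.124), and for Meox2 1424233_at it was -2.30 SD (0.00239, adjusted 0.175). After quantile normalization 18 of the 20 could be tested. An unadjusted limma p under 0.05 was then found for 0, 1 and 0 of them in the same order.

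Among 86 other regulators in the 7 lists (brown fat regulators, BMP ligands, receptors and Smads, inhibitors, targets, relatives and the muscle lineage), each gene taken once, an unadjusted exact p under 0.05 was found for 3 higher and 0 lower genes in BAT, 1 and 2 in WAT and 2 and 4 in liver. The share of 3.49% in BAT, 3.49% in WAT and 6.98% in liver stood below the share of all probe sets in each tissue. In BAT the 3 were Zfp516 (1.25 SD, exact p 0.0358), Bmp5 (1.21, exact p 0.039) and the BMP inhibitor Chrdl1 (1.35, exact p 0.028). In WAT the receptor gene Bmpr1b gave 2.14 SD (exact p 0.00466) and Zfp423 -1.21 SD (exact p 0.0437). In liver the corepressor gene Ctbp2 gave 2.2 SD (exact p 0.00117) and Bmp8b -1.59 SD (exact p 0.0137). The thermogenic, white fat and adipocyte lists lie outside these 7. In BAT 1 of 12, 2 of 14 and 2 of 7 of their genes were under 0.05 (8.33%, 14.3% and 28.6%), against 5.6% of all probe sets. In WAT these were 0 of 12, 1 of 14 and 0 of 7, against 4.09%, and in liver 1 of 12, 0 of 14 and 0 of 7, against 8.93%.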

How the data were processed

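RNA of 42 tissue samples was hybridised to Affymetrix arrays of the mouse genome, 1 sample an array. The authors summarized them by the distribution free weighted method in R (2.7.2 in the processing notes) and deposited the values of each probe set on a log scale of unstated base, read as log2 from their range. Of 45101 probe sets 64 controls were left out, and 45037 were tested without a filter. Of these 34945 name 1 gene, 932 several and 9160 none. A gene outside the 8 was represented by its probe set with the highest mean over all arrays. Pairs of identical arrays numbered 0. CAAM-treated mice are not analysed here.

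Groups were compared with limma 3.58.1 (R 4.3.3), with Benjamini-Hochberg adjustment over all probe sets at 0.05, beside exact permutation tests and rank products in Python 3.11.15 with numpy 2.4.6. The 136 relations across arrays used 100000 permutations each, and rank products 20 permutations, or 10 where an array was left out. The number of arrays limits the precision. limma and rank products were first checked on simulated arrays with known changes. The limma check used independent noise and changes larger than any effect of the 20 probe sets. The rank product check gave all features the same spread, unlike these arrays, so it does not cover probe sets of unequal spread. The rule for named genes took all 20 probe sets and the extremes of each list. The rule ordered lists by limma t, but they were ordered by the difference, since t between tissues is not interpretable on these values. The members and lists were chosen with earlier results of these data known. Other settings tried were the replicate number as a block, quantile normalization, filters on low values, other priors, array weights, 1 fit over all arrays, median centring, VAAM in place of water mice, and leaving out each array. Rank products with arrays left out, other settings and the block of the treatment by tissue test, the WAT comparison without both mice numbered 1, the limit of 0.5 and the likeness over BAT arrays were chosen after seeing the data.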

Additional observations from a re-analysis of the deposited data

Results flagged for a closer look

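Of 120 groups of 7 mice (20 probe sets in 6 groups), 13 had a mouse far from the others, by a gap, as a share of the group's range, above Dixon's critical value for groups of this size. Chance flags about 1 in 20 groups. In WAT, VAAM mouse 1 was lowest for all Ebf2 and Ebf3 probe sets, with a gap of 0.748 for Ebf2 1418494_at, 0.654 for 1449101_at and 0.731 for 1449102_at. For Ebf3 the gap was 0.85 for 1428349_s_at, 0.694 for 1452751_at and 0.717 for 1460666_a_at. The same mouse was highest for Prdm16 1440870_at (0.614). Water mouse 1 was highest in WAT for Prdm16 1440870_at (0.749) and 1440745_at (0.786). In BAT, VAAM mouse 2 was lowest for Prdm16 1440745_at (0.726) and water mouse 3 for Meox2 1424234_s_at (0.682). In liver, VAAM mouse 3 was lowest for Tbx15 1422195_s_at (0.604) and VAAM mouse 7 for Meox2 1424234_s_at (0.594).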

How the results depend on the processing

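The VAAM comparisons depended on the test. In BAT, WAT and liver limma called 0 of all probe sets, 1 fit over 42 arrays called 315, 129 and 691, and rank products 1977, 1552 and 1860. At an unadjusted p under 0.05 limma found 975 higher and 1321 lower in BAT, 744 and 948 in WAT, and 1878 and 2218 in liver. In liver the replicate block and quantile normalization called 1 each, and leaving out single arrays 0 to 5. Rank products called 1 of the 20 in BAT and 3 in WAT. Of the 20, limma gave an unadjusted p under 0.05 for 2 in BAT, against 0 with quantile normalization and 1 with 1 fit. In WAT this was 0, against 3 with the replicate block, 2 with array weights, 4 with 1 fit and 0 to 1 without single arrays. In liver it was 2, against 0 with the filter on means, 1 with 1 fit and 0 to 2 without single arrays. The cause was not tested. Liver Ebf2 1449101_at turned to -0.71 with quantile normalization.

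VAAM and water arrays of the same number deviated together in 2 of 7 pairs in BAT, 3 in WAT and 2 in liver (r over 0.1), with r between -0.19 and 0.48. A VAAM array was most like the water array of its own number for 3 of 7 in BAT, 3 in WAT and 1 in liver. The labels do not say what the number stands for. With that number as a block Meox2 1424233_at in WAT had a limma p of 0.00155 (adjusted 0.831).

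Between tissues limma called 16640 higher and 28293 lower for BAT minus WAT, 23424 and 21349 with quantile normalization, and 24749 and 20062 with median centring. The filter on means left 8308 and 16802, for BAT minus liver 14599 and 11314, and for WAT minus liver 17294 and 8998, since fewer probe sets were tested. For WAT minus liver median centring called 25148 lower and put 1 of the 20 lower by over 0.5. The sign turned in BAT minus WAT for Prdm16 1429309_at (0.207 with quantile normalization, 0.13 with centring) and Meox2 1424233_at and 1424234_s_at (0.0534 and 0.0864 with quantile normalization). In WAT minus liver it turned for Prdm16 1440745_at (-0.0618 with centring) and Bmp7 1432410_a_at (-0.0701 with quantile normalization, -0.174 with centring). The VAAM by tissue test called 0, 2 and 3 probe sets for BAT minus WAT, BAT minus liver and WAT minus liver with quantile normalization, 1, 30 and 74 with the filter, and 14, 107 and 149 with the shared number as a replicate block, which called 0 of the 20. The number of arrays limits all of these.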
